A study of Mus musculus with 10 samples.

Results

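Grhl3 lies on mouse chromosome 4, and 9 protein-coding genes that lie near it were followed through the oesophagus of mice exposed to 4-NQO (4-nitroquinoline 1-oxide, a carcinogen that damages DNA and causes squamous tumours in mouth and oesophagus). The genes are Wdtc1, Hmgn2, Sh3bgrl3, Cnksr1, Stmn1, Aunip, Stpg1, Lypla2 and Asap3. They were chosen by measured values, the small p-values of their difference between Grhl3 KO and wild type in these same libraries, among genes within about 2.5 Mb of Grhl3. All 9 are among the 22740 genes of the deposited count table and among the 13731 genes that passed the filter on low counts. Within 2.5 Mb of Grhl3, measured between gene midpoints, the table holds 100 other genes, of which 85 were tested. Since the group difference itself chose the genes, their differences between Grhl3 KO and wild type are given below as a description and support nothing.

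The Grhl3 KO group holds 5 libraries whose tissue is labelled as tumour of the oesophagus, and the wild-type group holds 5 whose tissue is labelled only as oesophageal, although the design text speaks of tumours for both genotypes. Both groups are labelled C57BL/6 and both received 4-NQO. The title of the series speaks of conditional knockouts, in which a recombinase deletes a gene only in cells that make it. The column headings of the counts read L2Cre or L2-Cre for the 5 Grhl3 KO libraries and WT for the 5 wild-type libraries. What L2 stands for, the promoter that drives the recombinase and the ages of the mice are not explained in the labels. Genotype and tissue label change together, so the 2 cannot be told apart. Libraries are named by group and the sample number in the title. The libraries held between 15.3 and 32.9 M counts in total. The epithelial keratin Krt14 stood at 17838 ± 1079 CPM in the Grhl3 KO group and at 17185 ± 2914 CPM in wild type (CPM being counts scaled to 1 M by the TMM-adjusted library total, SD, n = 5 each). All 8 oesophageal epithelium markers examined were detected, 1 of them (Krt14) higher and 7 lower in Grhl3 KO with a median log2 fold change of −0.21 and no edgeR adjusted p under 0.778. Wild-type libraries 1528 and 1555 held almost no counts of 4 Y-linked genes, with sums of 0.0527 and 0.0539 CPM. The sum was 72.3 CPM in wild-type library 1561 and 154 to 203 CPM in the remaining 7. The labels give no sex, and results are therefore also given without libraries 1528 and 1555.

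The 9 genes share a place on the chromosome and no common pathway. Hmgn2 encodes a small protein that binds nucleosomes and loosens chromatin, Stmn1 encodes stathmin, which destabilises microtubules, and Aunip encodes a partner of Aurora kinase A that also acts in DNA end resection. Genes that sit together on a chromosome are inherited together, and in mouse lines made by gene targeting the DNA around the targeted gene can come from the strain of the embryonic stem cells. The labels do not name that strain and counts per gene hold no sequence variants, so the origin of the DNA around Grhl3 was not tested.

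Grhl3 itself, a transcription factor gene of the grainyhead-like family that acts in barrier epithelia, did not separate the groups. Its gene (ENSMUSG00000037188) spans chr4:135541888-135573630 on the minus strand of GRCm38. In the 5 Grhl3 KO libraries 1026, 1027, 1035, 1036 and 1043 it stood at 135, 234, 191, 235 and 317 CPM. In the 5 wild-type libraries 1028, 1048, 1528, 1555 and 1561 it stood at 363, 114, 164, 283 and 109 CPM, so the lowest and the highest values are both wild type. The log2 fold change, Grhl3 KO minus wild type, was 0.11 (SE 0.35, edgeR adjusted p = 0.979). The counts cover the whole gene and cannot show if some exons are missing, so "Grhl3 KO" means the libraries so labelled.

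**Figure D1:**
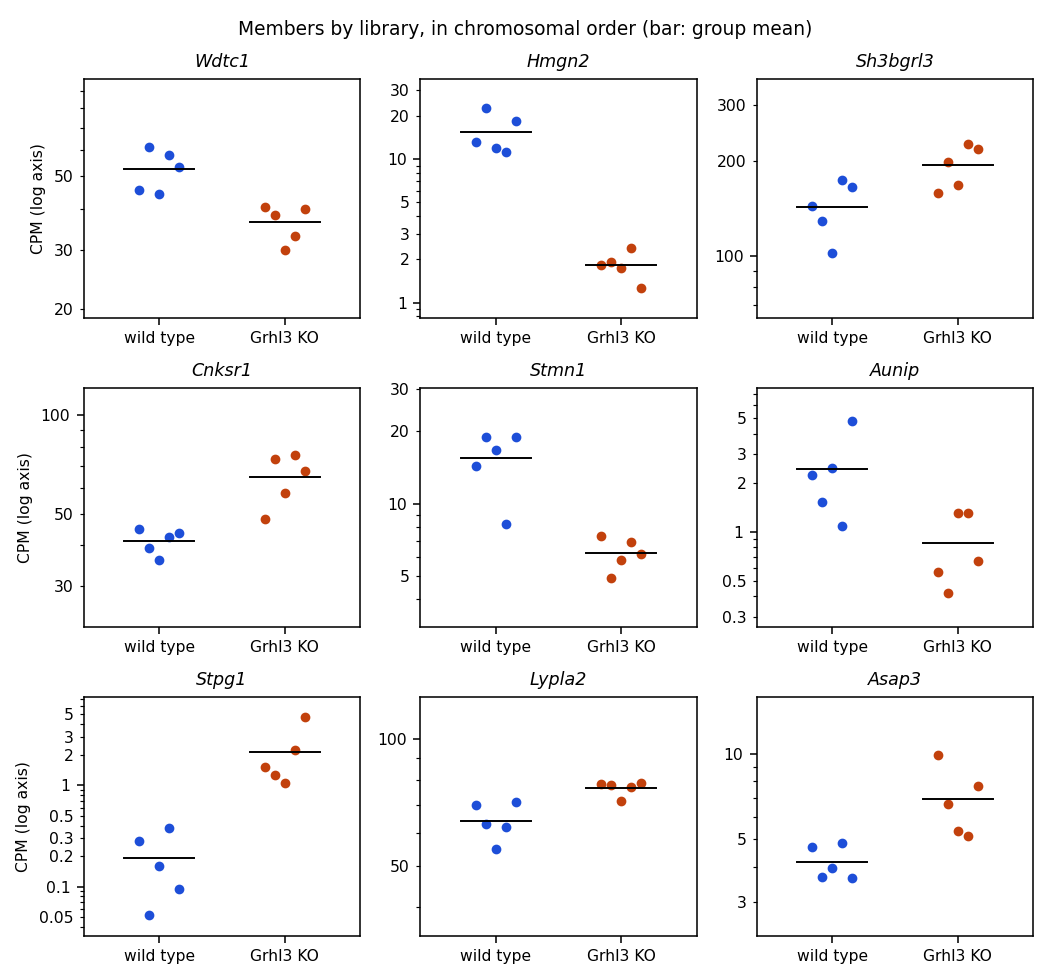
CPM on a log axis in each library for the 9 genes, in their order along chromosome 4, with wild type in blue on the left and Grhl3 KO in orange on the right of each panel (bar: group mean, n = 5 each). The groups do not overlap for Wdtc1, Hmgn2, Cnksr1, Stmn1, Stpg1, Lypla2 and Asap3, and they overlap for Sh3bgrl3 and Aunip.

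Hmgn2 showed the widest gap between the groups in this set of 9. The gene (ENSMUSG00000003038) spans chr4:133964738-133968650 on the minus strand, 1.59 Mb from Grhl3. The 5 wild-type libraries 1028, 1048, 1528, 1555 and 1561 held 277, 429, 226, 207 and 388 counts, which is 13.1, 22.6, 11.9, 11.2 and 18.3 CPM. The Grhl3 KO libraries 1026, 1027, 1035, 1036 and 1043 held 29, 60, 60, 61 and 21 counts, or 1.82, 1.92, 1.73, 2.40 and 1.25 CPM. Every Grhl3 KO library was low and none was at 0, and the lowest wild-type library stood 4.64 times above the highest Grhl3 KO library. The means were 1.83 ± 0.412 and 15.4 ± 4.89 CPM (SD, n = 5 each), an 8.37-fold lower level in Grhl3 KO with a log2 fold change of −3.06 (SE 0.25, 95% limits −3.62 to −2.51).

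The Hmgn2 count is uncertain because copies of its sequence lie elsewhere in the genome. Of its longest annotated protein-coding transcript of 1265 bases, 92.3% is matched, at 95% identity or more over 75 bases or more, by transcripts from 12 further genes, and 10 of these are annotated as pseudogenes. How reads that match several places were counted is not stated in the labels. Of those 12 genes the deposited table holds 1, Gm10282 on chromosome 8 (72304110 to 72305260). Gm10282 stood at 4.97, 4.99, 5.32, 7.56 and 4.66 CPM in the Grhl3 KO libraries in the order above and at 5.09, 8.32, 4.01, 3.88 and 8.66 CPM in the wild-type libraries. The groups overlap throughout for Gm10282, with a log2 fold change of −0.12 (SE 0.27, edgeR adjusted p = 0.967). The ratio of Hmgn2 to Gm10282 counts, which no library scaling affects, was 0.367, 0.385, 0.326, 0.318 and 0.269 in Grhl3 KO and 2.56, 2.72, 2.97, 2.88 and 2.11 in wild type. With both genes summed, the libraries stood at 5.91 to 9.97 CPM in Grhl3 KO and at up to 30.9 CPM in wild type. These sums did not overlap between the groups. Hmgn2 was chosen by its group difference and made up most of each wild-type sum. The ratio and the sum were therefore likely in advance to separate the groups and support nothing. The sum takes in only 1 of those 12 genes, and the Gm10282 count is open to the same uncertainty as that of Hmgn2.

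**Figure D2:**
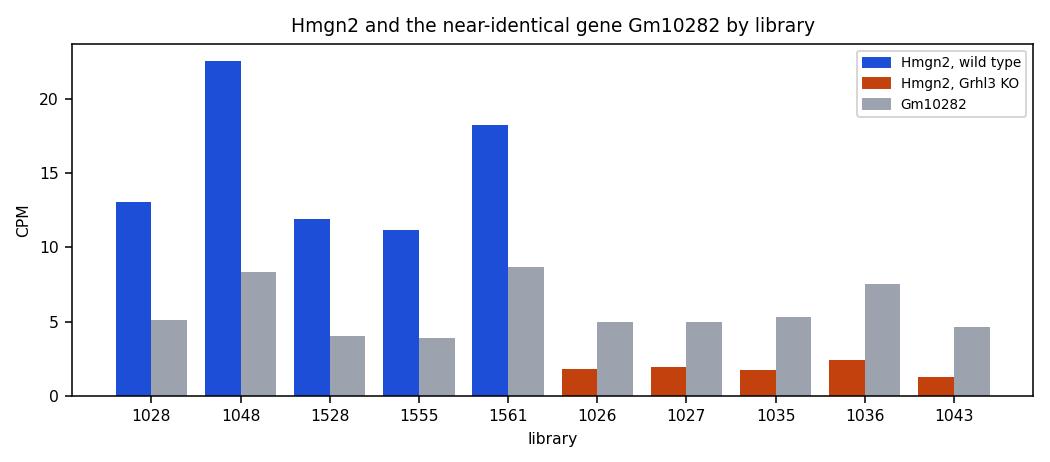
CPM of Hmgn2 (blue in wild type, orange in Grhl3 KO) and of the near-identical gene Gm10282 (grey) in each of the 10 libraries, on a linear axis from 0. Hmgn2 is above Gm10282 in all 5 wild-type libraries and below it in all 5 Grhl3 KO libraries, while Gm10282 spans 3.88 to 8.66 CPM across both groups.

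Stpg1, named for proline- and glycine-rich repeats of a sperm-tail protein, is the nearest neighbour of Grhl3 among the 9. Its gene (ENSMUSG00000028801) spans chr4:135494790-135537803 on the plus strand and ends 4084 bases before the 3′ end of Grhl3, which is read from the other strand. The wild-type libraries held 6, 1, 3, 7 and 2 counts and the Grhl3 KO libraries 24, 39, 36, 57 and 78, in the order above. In CPM the wild-type libraries stood at 0.283, 0.0527, 0.158, 0.377 and 0.0941 and the Grhl3 KO libraries at 1.51, 1.25, 1.04, 2.25 and 4.66. Stpg1 is thus close to the limit of detection in wild type and low but present in every Grhl3 KO library, with library 1043 the highest. The means were 2.14 ± 1.48 and 0.193 ± 0.135 CPM (SD, n = 5 each), and the log2 fold change was 3.42 (SE 0.58, 95% limits 2.14 to 4.71). It was 2.93 without Grhl3 KO library 1043.

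In the GENCODE annotation, Stpg1 shares 249 bases at its 5′ end with Nipal3, a gene read from the opposite strand. The deposited counts are described as reverse-stranded. Nipal3, the tested gene next to it on the far side from Grhl3, stood at 15.2 ± 1.92 CPM in Grhl3 KO and at 14.7 ± 3.05 CPM in wild type (log2 fold change 0.05, edgeR adjusted p = 0.979). The next gene in that direction, Rcan3, differed by 0.06 (edgeR adjusted p = 0.957). On the other side of Grhl3 the nearest tested genes were the interferon lambda receptor gene Ifnlr1 at 0.05 (edgeR adjusted p = 0.977) and the interleukin 22 receptor gene Il22ra1 at 0.20 (edgeR adjusted p = 0.947). Of the 6 tested genes in this stretch, counting Grhl3, Stpg1 alone separated the groups, as 1.35% of all tested genes did. Stpg1 was chosen by this difference, and its Grhl3 KO libraries alone took it past the filter on low counts. Nothing is therefore read from its standing out. No part of the Stpg1 transcript was near-identical to a transcript of another gene.

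The promoters of Stpg1 and Hmgn2 are shown because these 2 genes had the largest differences among the 9, in opposite directions. Both run from 250 bases before to 50 bases after the RefSeq transcription start on GRCm38.p6, 5′ to 3′ on the gene's strand. They lie at chr4:135495737-135496036 (plus) for Stpg1 and chr4:133967942-133968241 (minus) for Hmgn2. Both stretches lie inside the GENCODE gene spans given above, so the annotations place the starts differently. The stretch for Stpg1 does not reach the 249 bases shared with Nipal3. Capitals mark matches, on either strand, to CCAAT, to the TATA motif TATAAA and to AACNGGTT, a form with 1 free base of the grainyhead-like consensus AACCGGTT.
Stpg1: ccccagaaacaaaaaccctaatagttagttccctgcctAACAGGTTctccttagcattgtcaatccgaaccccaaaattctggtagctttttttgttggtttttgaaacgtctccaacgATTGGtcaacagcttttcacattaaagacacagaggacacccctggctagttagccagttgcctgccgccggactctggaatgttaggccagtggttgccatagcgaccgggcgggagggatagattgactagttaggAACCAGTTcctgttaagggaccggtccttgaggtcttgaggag
Hmgn2: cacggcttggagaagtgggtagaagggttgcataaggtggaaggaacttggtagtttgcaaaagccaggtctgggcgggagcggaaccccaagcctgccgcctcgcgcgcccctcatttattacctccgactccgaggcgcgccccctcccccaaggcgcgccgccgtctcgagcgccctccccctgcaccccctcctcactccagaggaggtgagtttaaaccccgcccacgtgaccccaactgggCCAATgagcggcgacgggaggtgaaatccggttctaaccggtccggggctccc

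Stpg1 holds AACNGGTT at 2 places, starting 212 bases before and at base 8 after the start, and CCAAT on the minus strand. Hmgn2 holds CCAAT and no match to AACNGGTT. Among 32851 promoters of the same length, 2.09% hold AACNGGTT, 0.146% hold AACCGGTT, 37.4% hold CCAAT and 13.6% hold TATAAA. RefSeq promoters were found for 8 of the 9 genes, all but Stmn1. Stpg1 was the 1 of these 8 with AACNGGTT, 5 held CCAAT (Hmgn2, Stpg1, Cnksr1, Wdtc1 and Sh3bgrl3) and none held TATAAA or AACCGGTT. Their GC content ran from 47.3% in Aunip and 49.0% in Stpg1 to 70.0% in Wdtc1, against a median of 52.7% over all promoters. These matches describe letters, and no binding was measured.

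Stmn1 and Aunip, which both act on the mitotic spindle or its kinases, lie next to each other but for the gene Paqr7. Stmn1 (ENSMUSG00000028832) spans chr4:134468320-134473843 and Aunip (ENSMUSG00000078521) chr4:134510999-134523927, both on the plus strand and 1.09 and 1.04 Mb from Grhl3. Stmn1 stood at 7.36, 4.93, 5.81, 6.93 and 6.15 CPM in the Grhl3 KO libraries and at 14.4, 18.9, 16.6, 8.19 and 18.9 CPM in wild type. Wild-type library 1555 was close to the Grhl3 KO range, 1.11 times its highest value, and the other 4 wild-type libraries were well above it. The Stmn1 log2 fold change was −1.31 (SE 0.22), from 15.4 ± 4.44 to 6.24 ± 0.955 CPM (SD, n = 5 each). A pseudogene matches 42.5% of the longest Stmn1 transcript almost exactly, so its count is uncertain too.

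Aunip was scarce, with 9 to 45 counts per Grhl3 KO library and 20 to 102 per wild-type library. It stood at 0.566, 0.416, 1.30, 1.30 and 0.657 CPM in Grhl3 KO and at 2.22, 1.53, 2.48, 1.08 and 4.80 CPM in wild type. Here the groups overlapped, since wild-type library 1555 lay below Grhl3 KO libraries 1035 and 1036. The log2 fold change was −1.49 (SE 0.46), and −1.08 without wild-type library 1561, the highest.

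The gene between them, Paqr7, and the gene Sepn1 beyond Aunip were picked for mention from their values. Paqr7, which encodes a membrane progesterone receptor, differed by −0.57 (SE 0.23) and Sepn1, which encodes selenoprotein N, by −0.54 (SE 0.22), with edgeR adjusted p-values of 0.645 and 0.668. Mtfr1l, which lies between Aunip and Sepn1, differed by −0.04.

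Cell division genes were measured beside Hmgn2, Stmn1 and Aunip and overlapped between the groups. The mean log2 CPM of 22 proliferation genes was 5.83 ± 0.344 in Grhl3 KO, against 5.78 ± 0.495 for wild type (SD, n = 5 each), a difference of 0.05 (exact two-sided permutation p = 0.849, and 0.849 adjusted over 8 marker lists). Of the 22 genes 13 were higher and 9 lower, and 0 passed an edgeR adjusted p of 0.05 or an unadjusted p of 0.05. The most abundant, Mki67, stood at 236 ± 39.5 against 230 ± 81.4 CPM and Top2a at 182 ± 48.3 against 163 ± 56.7 CPM. In bulk tissue, fewer cells of a type and less RNA per cell cannot be told apart.

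Cnksr1 and Sh3bgrl3, at 1.32 and 1.43 Mb from Grhl3, both stood higher in Grhl3 KO. Cnksr1 (ENSMUSG00000028841, chr4:134228041-134238399, minus strand) encodes a scaffold that connects Ras to its effector kinases. It stood at 48.3, 73.4, 57.7, 75.7 and 67.6 CPM in Grhl3 KO and at 45.0, 39.3, 36.2, 42.5 and 43.7 CPM in wild type. Library 1026, the lowest of Grhl3 KO, was 1.07 times the highest of wild type, so the separation is narrow. The Cnksr1 log2 fold change was 0.64 (SE 0.13).

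Sh3bgrl3 (ENSMUSG00000028843, chr4:134127406-134128789, minus strand) encodes a small protein with a thioredoxin-like fold and had the highest level per length of the 9. It stood at 158, 199, 167, 226 and 218 CPM in Grhl3 KO and at 144, 129, 102, 174 and 165 CPM in wild type. Its log2 fold change was 0.44 (SE 0.16). Grhl3 KO libraries 1026 and 1035 lay within the wild-type range. Its 3′ end shares 188 bases with Ubxn11, which is read from the opposite strand and held 12 to 25 counts per library.

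Wdtc1 (ENSMUSG00000037622, chr4:133292459-133353481, minus strand), the farthest of the 9 at 2.23 Mb, encodes a WD-repeat protein that works as a substrate receptor of CUL4 ubiquitin ligases. It stood at 40.5, 38.3, 30.1, 33.1 and 39.9 CPM in Grhl3 KO and at 45.4, 61.3, 44.4, 58.0 and 53.5 CPM in wild type. All 5 Grhl3 KO libraries were lower, the closest pair differing 1.10-fold, and the log2 fold change was −0.53 (SE 0.12).

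On the other side of Grhl3 lie Lypla2 and Asap3, at 413 and 668 kb. Lypla2 (ENSMUSG00000028670, chr4:135968224-135972626, minus strand) encodes an acyl protein thioesterase, which takes palmitate off proteins. It stood at 78.5, 77.8, 71.6, 77.0 and 78.7 CPM in Grhl3 KO and at 69.9, 62.9, 54.9, 62.0 and 71.1 CPM in wild type. The groups touch, with a ratio of 1.01 between the nearest libraries, and the log2 fold change of 0.26 (SE 0.08) was the smallest of the 9. It was 0.17 without wild-type libraries 1528 and 1555.

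Asap3 (ENSMUSG00000036995, chr4:136206365-136245216, plus strand) encodes a GTPase-activating protein for Arf GTPases. It stood at 9.94, 6.66, 5.35, 5.16 and 7.70 CPM in Grhl3 KO and at 4.72, 3.69, 3.96, 4.85 and 3.67 CPM in wild type. Grhl3 KO libraries 1035 and 1036 were just above the wild-type range and library 1026 was highest. The Asap3 log2 fold change was 0.73 (SE 0.21).

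Per length, the order of the 9 genes differed between the groups at its low end. In wild type, CPM per kb of annotated exon ran from 174 for Sh3bgrl3 through 31.2 for Lypla2, 14.7 for Cnksr1, 10.9 for Wdtc1, 8.01 for Stmn1, 5.03 for Hmgn2, 1.90 for Aunip and 0.988 for Asap3 to 0.0632 for Stpg1. In Grhl3 KO the first 5 kept that order, from 236 for Sh3bgrl3 to 3.24 for Stmn1, and Hmgn2 came last at 0.597 ± 0.135 CPM per kb. Aunip at 0.665 ± 0.331 and Stpg1 at 0.701 ± 0.484 CPM per kb lay within each other's spread and that of Hmgn2 (SD, n = 5 each). Each length joins all annotated exons of a gene, 3060 bases for Hmgn2 against 1265 in its longest protein-coding transcript. The order at the low end therefore depends on the length used, and its shifts restate the differences that chose the genes.

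**Figure D3:**
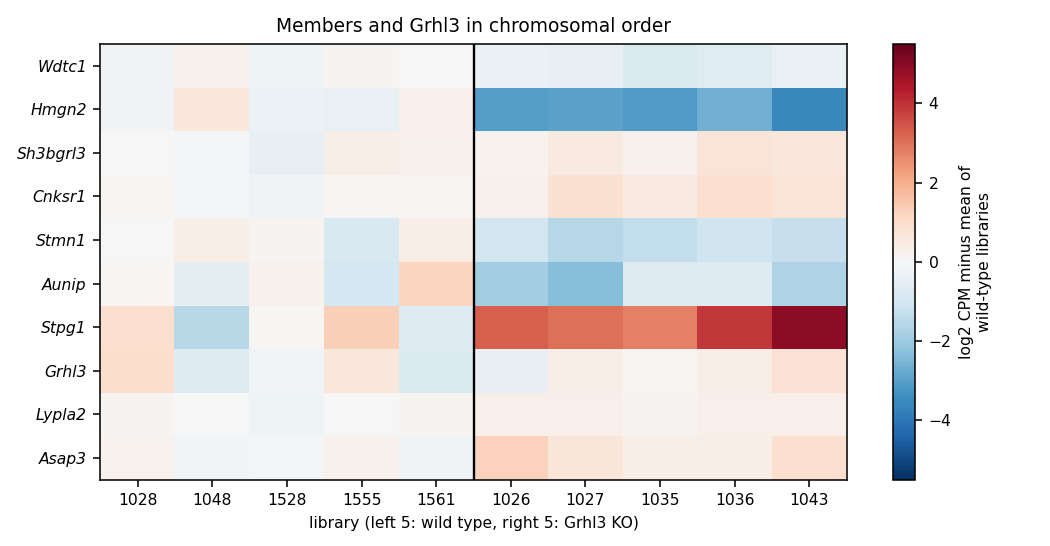
Log2 CPM of the 9 genes and Grhl3, in chromosomal order, in each library minus the mean of the 5 wild-type libraries (red: higher, blue: lower). Hmgn2 and Stmn1 are blue and Stpg1 is red in all 5 Grhl3 KO libraries, and Grhl3 varies in both groups.

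The p-values that chose the genes were, unadjusted, 9.84e-08 for Hmgn2, 0.000105 for Stpg1, 0.000109 for Stmn1, 0.000334 for Cnksr1, 0.0011 for Wdtc1, 0.00544 for Asap3, 0.00819 for Aunip, 0.0103 for Lypla2 and 0.0163 for Sh3bgrl3. Adjusted over all tested genes in edgeR's quasi-likelihood test, Hmgn2 was the 1 of 9 under 0.05 (edgeR adjusted p = 0.00135), where 0.0801% of all tested genes were. The other 8 had edgeR adjusted p-values from 0.0834 to 0.554. All 9 had an unadjusted p under 0.05, as 7.16% of all tested genes did, and 7 of 9 showed no overlap between the groups, as 1.35% of all tested genes did. Since these values chose the genes, nothing is read from those counts. Hmgn2 was called in 20 of 20 alternative analyses, Stmn1 and Cnksr1 in 2 each, Stpg1 and Wdtc1 in 1 each, and Asap3, Aunip, Lypla2 and Sh3bgrl3 in 0. Of all tested genes, these alternatives called from 1 (of 13731 with limma voom, for example) to 119 (of 13707 with DESeq2). They reuse the libraries that chose the genes, so nothing is read from these calls either.

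The choice did not take every gene of small p in the window. Alpl, which encodes tissue-nonspecific alkaline phosphatase and lies 2.21 Mb away, had a p of 0.00482 and a log2 fold change of 1.69 (SE 0.48). At the edge of the choice, Sh3bgrl3 was inside with a p of 0.0163 and Rap1gap, which encodes a GTPase-activating protein for Rap1, was outside with a p of 0.0184 and a log2 fold change of 0.44.

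The share of genes with a small p was counted by distance from Grhl3. The window was itself part of the choice, so these shares are a description. Of the 85 other tested genes in that window, 16 (18.8%) had an unadjusted p under 0.05, 9 of them higher and 7 lower in Grhl3 KO. The share was 20.0% within 0.5 Mb (4 of 20), 14.3% from 0.5 to 1 Mb (2 of 14) and 19.6% from 1 to 2.5 Mb (10 of 51). It was 5.66% from 2.5 to 5 Mb (3 of 53), 8.26% from 5 to 10 Mb (9 of 109), 5.79% on the rest of chromosome 4 (35 of 605) and 7.13% on the other chromosomes. Groups without overlap were seen for 9 of the 85 genes (10.6%), against 1.31% on the other chromosomes. Leaving out the 9 genes, 7 of 76 (9.21%) had an unadjusted p under 0.05, and that figure is low by construction because the genes of smallest p were taken away.

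On the side of lower coordinates, 3 of the 9 genes with an unadjusted p under 0.05 were higher in Grhl3 KO and 6 lower. On the side of higher coordinates, 6 of 7 were higher and 1 lower. Within 0.5 Mb all 4 were higher. The median log2 fold change over all 85 genes was 0.06, with 56 higher and 29 lower. Over all 13731 tested genes the median was near 0, with 6829 higher and 6902 lower. Of all tested genes with an unadjusted p under 0.05, 472 were higher and 511 lower. The 85 include the 9 genes chosen by this difference, so these counts are a description.

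**Figure D4:**
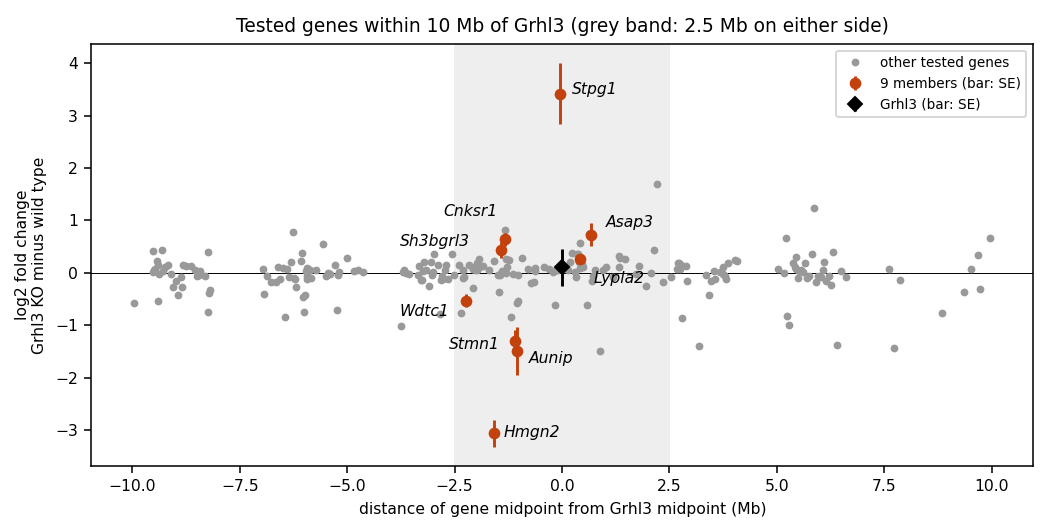
Log2 fold change, Grhl3 KO minus wild type, of the tested genes within 10 Mb against the distance of their midpoint from that of Grhl3 in Mb (orange: the 9 genes with SE, black diamond: Grhl3 with SE, grey: others). Stpg1 at 3.42 and Hmgn2 at −3.06 stand farthest from 0, and Grhl3 lies at 0.11.

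**Figure D5:**
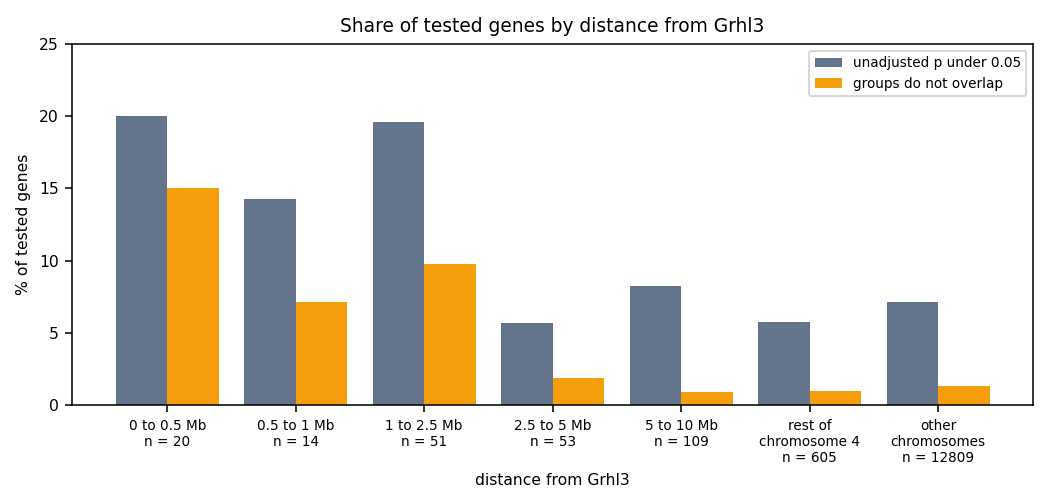
Share of tested genes, in %, with an unadjusted p under 0.05 (grey) and with groups that do not overlap (orange), by distance from Grhl3, with the number of tested genes under each pair of bars. The bars for genes within 2.5 Mb reach 14.3 to 20.0% and at least 7.14%, and those farther away stay at or below 8.26% and 1.89%.

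The members' differences had the same sign in all 20 alternatives, including those that left out some wild-type libraries. All alternatives reuse the libraries whose differences chose the genes. The same sign was therefore likely in advance and supports nothing. Without wild-type libraries 1528 and 1555 the log2 fold changes were −3.29 for Hmgn2, 3.82 for Stpg1, −1.48 for Stmn1, −1.73 for Aunip, 0.60 for Cnksr1, −0.56 for Wdtc1, 0.79 for Asap3 and 0.41 for Sh3bgrl3. The sample numbers fall into a series near 1000 (5 Grhl3 KO and 2 wild-type libraries) and one near 1500 (3 wild-type libraries), and the labels do not say what they mean. Within the series near 1000 the values were −3.27, 3.59, −1.42, −1.12, 0.62, −0.55, 0.72 and 0.50 for the same genes and 0.21 for Lypla2. The series near 1500 holds no Grhl3 KO library and gives no value.

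Relatives and partners of the 9 genes elsewhere in the genome were examined by the same fit, as 48 genes in 9 lists. Of 41 that were tested, 21 were higher and 20 lower, with a median log2 fold change of 0.02, and 0 had an edgeR adjusted p under 0.05. An edgeR unadjusted p under 0.05 was found for 3 of the 41, and for 7.16% of all tested genes. The lowest edgeR adjusted p among the 41 was 0.438. The other nucleosome-binding HMGN genes, Hmgn1, Hmgn3 and Hmgn5, differed by −0.20, −0.17 and −0.26 (edgeR adjusted p from 0.76 to 0.913). Hmgn1 was at 276 ± 22.4 CPM in Grhl3 KO, against 316 ± 38.6 CPM for wild type (SD, n = 5 each).

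Of the stathmin family, Stmn2 stood at 3.16 ± 0.451 against 6.37 ± 5.10 CPM (log2 fold change −1.01, edgeR adjusted p = 0.697), and Stmn3 and Stmn4 held at most 8 counts in any library. Among partners of Cnksr1 in the Raf cascade, 6 of 7 tested genes were higher, with Araf at 0.17 (edgeR adjusted p = 0.668). Of 5 CUL4 ligase genes 3 were higher and 2 lower, with Cul4a at 0.16, Dda1 at 0.19 and Rbx1 at −0.14 (edgeR adjusted p = 0.724, 0.728 and 0.793). Of the other Arf GTPase-activating proteins, 4 were higher and 4 lower, with Arap1 at −0.23 and Arap3 at 0.26 (edgeR adjusted p = 0.787 and 0.824).

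Aurka, the kinase that Aunip binds, differed by −0.06 (edgeR adjusted p = 0.984), and of 8 genes of Aurora A and end resection 3 were higher and 5 lower. The smallest p among them was that of the end-resection gene Rbbp8, at −0.22 (edgeR adjusted p = 0.769). Of 6 depalmitoylating enzymes, 4 were higher and 2 lower. Abhd17b was at 0.41, Lypla1, the closest relative of Lypla2, at 0.20 and Lyplal1 at −0.49 (edgeR adjusted p = 0.438, 0.734 and 0.824). Sh3bgr and Sh3bgrl, relatives of Sh3bgrl3, were at 0.48 and −0.15 (edgeR adjusted p = 0.909 and 0.913). Of the 3 genes with sperm-tail repeats besides Stpg1, Stpg2 held at most 1 count in any library and the others were not analysed here.

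Cell type markers were measured because Stpg1 is named for sperm tails and the tissue holds muscle, stroma and blood cells. Of 8 spermatogenic and ciliated cell markers, Prm1 and Tnp1 were at 0 in all 10 libraries and only Rsph1 passed the filter. Their summed level ran from 1.82 to 2.27 CPM in Grhl3 KO and from 1.94 to 5.43 CPM in wild type (exact two-sided permutation p of the sums = 0.0556, adjusted over 8 lists 0.445). Skeletal muscle markers summed to 631 to 4438 CPM in Grhl3 KO and 1012 to 2189 CPM in wild type, with Acta1 and Myh1 the most abundant. By log2 fold change 8 of 8 were higher in Grhl3 KO, but the sums overlapped. Their exact two-sided permutation p was 0.437, and 0.849 adjusted over 8 lists. Summed levels of smooth muscle (5 markers), fibroblast (6), endothelial (5) and leukocyte markers (7 in the table) overlapped between the groups, with exact two-sided permutation p of the sums from 0.548 to 0.81. None of these lists had a gene past an edgeR adjusted p or an unadjusted p of 0.05, and their part in the members' values was not tested.

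Deviations of each library from its own group's mean leave out the difference between the groups, but the p-values that chose the genes also depend on their spread. Over the 36 pairs of the 9 genes, Pearson's r of these deviations in log2 CPM across the 10 libraries ran from −0.698 to 0.782 with a median of 0.124, and 22 pairs were above 0. Cnksr1 and Sh3bgrl3, both higher, had an r of 0.782, and Hmgn2 and Stmn1, both lower, an r of 0.566. Stmn1 and Aunip had 0.565. Hmgn2 and Stpg1 had −0.698, the lowest of all pairs. These are descriptions over 10 libraries, in which all genes share a library's depth and tissue composition, and other gene pairs were not measured for comparison.

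With the proliferation score treated in the same way, Aunip had an r of 0.828 and Stmn1 0.68, Hmgn2 0.409 and Asap3 −0.677, while Cnksr1, Lypla2 and Sh3bgrl3 lay between −0.0529 and 0.0289. Among all tested genes, the deviations most like those of Hmgn2 were those of Siae (0.981), Ubtd2 (0.927) and 2610044O15Rik8 (0.926). For Stpg1 they were Gstm6 (0.96), Pomp (0.954) and Mrps26 (0.953), and for Stmn1 Dennd1a (0.961), Ctc1 (0.937) and Efcab11 (0.912). None of these 9 lies on chromosome 4, and their log2 fold changes ran from −0.18 to 0.38. They are the highest values among all tested genes over 10 libraries, where high values can arise by chance, and this was not tested. Stpg1 held 1 to 7 counts per wild-type library, so its deviations there are uncertain.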

How the data were processed

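RNA sequencing counts per gene were analysed for 10 mouse oesophageal libraries, 5 Grhl3 KO and 5 wild type, grouped by their titles and genotype labels. The authors deposited whole-number counts for 22740 protein-coding genes, made with featureCounts on GRCm38 per the submitters' processing notes. Per the labels, libraries came from a stranded mRNA kit and the counts are reverse-stranded. The labels do not state the aligner or the annotation release. The table had 0 unnamed genes and 0 columns of other samples. Nothing says whether libraries of 1 group came from separate mice, so p-values measure the spread between these libraries.

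edgeR 4.0.16 (R 4.3.3) with filterByExpr (minimum count 10, minimum total 15), TMM scaling and the robust quasi-likelihood test compared Grhl3 KO with wild type over 13731 genes, with Benjamini-Hochberg adjustment. 4661 genes were at 0 throughout. The proliferation list was compared by its mean log2 CPM (prior count 2) and the other 7 marker lists by their summed CPM, with an exact permutation test. Positions came from GENCODE M21 for 21842 genes, near-identity from blastn 2.17.0 (at least 75 bases, at least 95%), and promoters from RefSeq GRCm38.p6. The scripts were tested on simulated data. Named genes are the 9 members, Grhl3, its tested neighbours, genes at the edge of the choice and listed relatives. The members and lists were chosen with earlier results of these data known. Alternatives were other scalings and filters, DESeq2 1.42.0, limma 3.58.1, the number series, each library left out, and, chosen after seeing the data, libraries 1528 and 1555 left out. Results on 2 genes are not reported here.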

Additional observations from a re-analysis of the deposited data

Results flagged for a closer look

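Lypla2 in Grhl3 KO library 1035 stood at 71.6 CPM, far from the other 4 Grhl3 KO libraries at 77.0 to 78.7 CPM for the spread of that group. It still lay above all 5 wild-type libraries, of which the highest was at 71.1 CPM. Of 20 groups examined in this way it was the 1 that stood out, and chance alone marks about 1 in 20.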

How the results depend on the processing

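No paired analysis was possible because the sample numbers are not shared between the groups. The number of genes past an adjusted p of 0.05 was 11 with edgeR, 7 with no filter, 119 with the DESeq2 Wald test, and 1 each with limma voom, in the number series near 1000 and without wild-type libraries 1528 and 1555. It ran from 1 to 16 when each library was left out. It was 1 without Grhl3 KO 1027, 1036 or 1043 or wild-type 1528, 2 without wild-type 1555, 3 without Grhl3 KO 1035 and 7 without wild-type 1561. Hmgn2 was past the threshold in all 20 alternatives, with adjusted p from 1.76e-27 to 0.0382. The other calls among the members were Stpg1, Stmn1, Cnksr1 and Wdtc1 with DESeq2, Stmn1 without wild-type 1555 and Cnksr1 without Grhl3 KO 1026. The 119 genes with DESeq2 were out of 13707 tested. The members were chosen by this same difference, so their calls support nothing. The share of tested genes with an unadjusted p under 0.05 was 18.8% within 2.5 Mb and 11.3% within 10 Mb, against 7.16% of all tested genes. Both windows hold the members, which were chosen by small p. Over the alternatives the share within 2.5 Mb ran from 15.1 to 25.9%, and that of all tested genes from 5.36 to 9.09%. The difference in the proliferation score, 0.05, was −0.04 without Grhl3 KO 1035, −0.03 without wild-type 1028 and −0.10 without wild-type 1555, within a range of −0.10 to 0.22. No member's log2 fold change reversed, which the choice of the members by this difference made likely in advance. The causes were not tested. Depth was low for Stpg1, with 1 to 7 counts per wild-type library, and for Aunip, with 9 to 45 counts per Grhl3 KO library.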
